A study of Mus musculus with 9 samples.

Results

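The 10 mRNAs described here encode receptors of selective autophagy: the cargo receptors Sqstm1 (p62), Optn, Nbr1, Calcoco1, Tax1bp1, Tollip and Wdfy3 (ALFY), and the mitophagy receptors Bnip3, Bnip3l (NIX) and Fundc1. They were chosen by function, with earlier results of these data known, and found by symbol. All 10 are among the 36410 genes listed and the 13508 genes that passed the filter on low counts. Their mRNA was measured in immortalized STHdh striatal cells from knockin mouse embryos, with a strain label of C57/BL6. Control cells (STHdhQ7/Q7) carry 7 glutamine repeats in both copies of exon 1 of huntingtin, HD-het cells (STHdhQ7/Q111) carry 7 in one copy and 111 in the other, and HD-homo cells (STHdhQ111/Q111) carry 111 in both. No cells were treated, and 3 RNA-seq libraries were made from poly(A)-selected RNA of each line. Each genotype is 1 line, so the genotype cannot be told apart from the line. The labels do not say whether the 3 libraries came from separate cultures. The p-values therefore measure the spread between these libraries, which may be technical.

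Selective autophagy receptors bind a cargo with one part of the protein and LC3 or GABARAP proteins on the growing autophagosome with another, so that the cargo is enclosed and carried to the lysosome. Most cargo receptors recognise ubiquitin chains on protein aggregates, damaged organelles or bacteria, whereas the mitophagy receptors sit in the outer membrane of the mitochondrion they mark. In Huntington disease the loading of cargo into autophagosomes is known to be impaired, and ALFY, p62, optineurin and Tollip have each been studied for their part in clearing polyglutamine aggregates.

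Between 29507665 and 41197931 reads were counted per library, so that 3 counts, taken as the smallest number that can show a gene, lay between 0.071 and 0.101 normalized counts per megaread (CPM). The variance between replicate libraries was between 2.13 and 37.5 times that of counting alone, and it was largest between HD-homo replicates 2 and 3. Htt mRNA was 100 ± 6 CPM in control, 62.3 ± 1.51 in HD-het and 20.2 ± 1.29 in HD-homo cells (SD, n = 3), and the repeat itself cannot be seen in gene counts. Defining markers of striatal neurons (Drd1 and Drd2) and of neurons (Rbfox3, Snap25, Syt1 and Dcx) had 3 counts or fewer in every library, although the striatal label is kept here as the name of the line. Other markers of these lists were counted, and 6 of 11 striatal neuron and 3 of 7 pan-neuronal markers passed the filter. The pan-neuronal sum ran from 96.6 to 117.5 CPM in control, from 111.2 to 117.4 in HD-het and from 89.9 to 114.8 in HD-homo cells. Summed neural progenitor markers (4 of 7 tested) ran from 660.6 to 702.0 CPM in control, from 958.6 to 997.0 in HD-het and from 27.9 to 40.8 in HD-homo cells. Smooth muscle and pericyte markers (6 of 7 tested) ran from 2463.4 to 2889.2, from 7377.8 to 8107.3 and from 369.0 to 512.3 CPM, and fibroblast markers (5 of 7) from 5768.1 to 7792.1, from 16618.5 to 18085.8 and from 10950.2 to 12393.7 CPM in the same order of lines. Oligodendrocyte lineage markers (4 of 7), nearly all Pdgfra, ran from 4.8 to 6.78, from 5.36 to 6.65 and from 303.6 to 312.5 CPM, and the sums of astrocyte, microglia and endothelial markers were at most 18.6 CPM in any library. In such bulk libraries a smaller share of cells with an mRNA and less of it per cell cannot be told apart.

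The comparisons ask whether receptor mRNAs differ between cells without and with the expanded repeat. Among the 10, Optn had the highest fold change against control cells in both HD lines, and Bnip3 and Bnip3l rose in both. Sqstm1 and Tollip rose in HD-het cells and fell in HD-homo cells. Wdfy3 did not pass the threshold in any comparison. Differences were tested with edgeR's quasi-likelihood test fitted to all 9 libraries, two-sided, with Benjamini-Hochberg adjustment over the 13508 tested genes and a threshold of 0.05.

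In HD-het against control cells, 6 of the 10 receptors rose, and the log2 fold changes of the other 4 lay between 0.07 and 0.20. Of all tested genes, 65.1% passed the threshold, 33.8% as higher and 31.4% as lower. The libraries of the 2 lines did not overlap for 7 receptors and for 74% of all tested genes, and the median log2 fold change was 0.35 for the receptors and 0.03 for all genes. In HD-homo against control cells, 7 receptors rose and 2 fell, where 58.6% of all tested genes passed, 29.6% as higher and 28.9% as lower. Here 9 receptors did not overlap, against 65.3% of all tested genes, and the medians were 0.33 and 0.01. In HD-homo against HD-het cells, 1 receptor was higher and 2 were lower, where 71.6% of all tested genes passed, 36% as higher and 35.6% as lower. The libraries did not overlap for these 3 receptors and for 72.8% of all tested genes, and the medians were 0.08 and 0.00. The comparisons of HD-het and of HD-homo cells with control cells share their control libraries. At an adjusted p under 0.01, 4 receptors and 7153 of the 13508 tested genes passed in HD-het against control cells. In HD-homo against control cells 5 receptors passed at that threshold. The share of all tested genes is not reported here for it, so this count has no background.

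**Figure D1:**
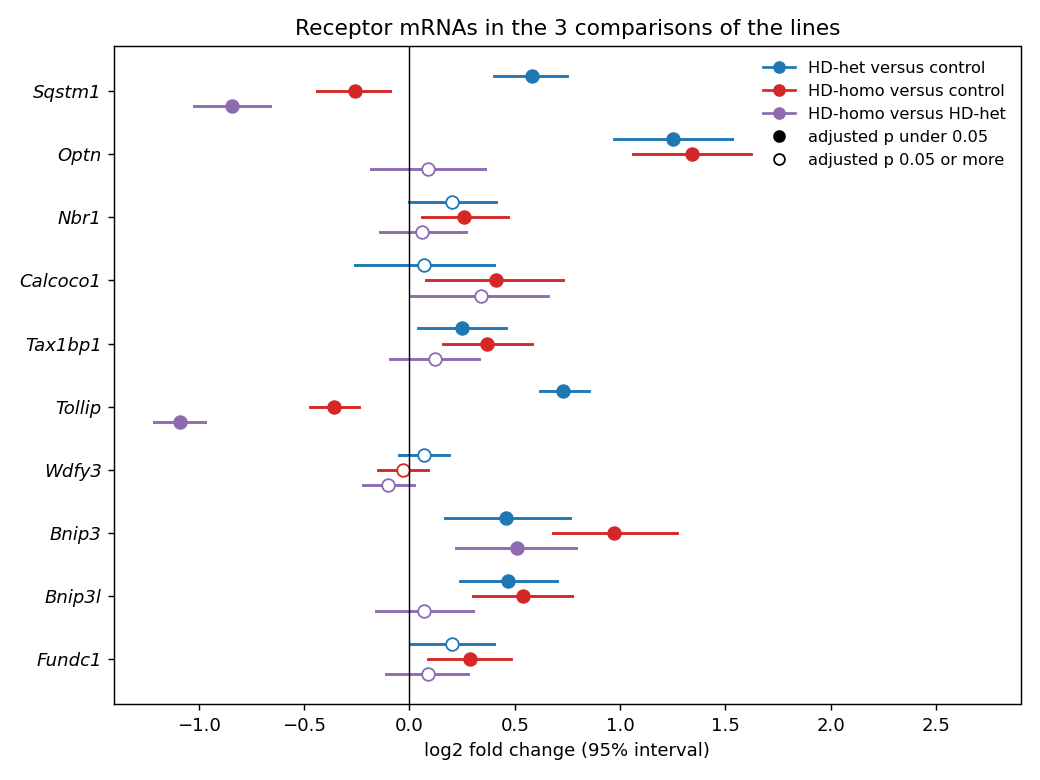
Log2 fold change of each receptor mRNA (horizontal axis) with its 95% interval in the 3 comparisons, with filled points for an adjusted p under 0.05. Optn lies at 1.25 and 1.34 in the 2 HD lines against control cells, and Sqstm1 and Tollip lie on opposite sides of 0 in HD-het and HD-homo cells.

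Levels of different genes were compared only per length, as normalized CPM per kilobase of annotated exon. Sqstm1 was the highest in each line, at 114.0 ± 6.57 in control, 170.0 ± 18 in HD-het and 95.1 ± 4.07 CPM per kilobase in HD-homo cells (SD, n = 3). It made up 57.9 ± 1.7% of the summed per-kilobase level of the 10 receptors in control, 60.5 ± 1.26% in HD-het and 47.9 ± 2.25% in HD-homo cells. The HD-homo libraries, between 45.4 and 49.7%, lay below those of both other lines. The other 9 receptors lay between 3.72 and 27 CPM per kilobase in the line means. In control cells the order after Sqstm1 was Tollip (16.3), Tax1bp1 (14.2), Nbr1 (12.1), Fundc1 (9.28), Bnip3l (9.18), Wdfy3 (8.61), Bnip3 (4.89), Calcoco1 (4.41) and Optn (3.72). Only Fundc1 and Bnip3l, and Bnip3 and Calcoco1, overlapped with their neighbour in that order. Optn, the lowest receptor in control cells, was above Bnip3 and Calcoco1 in HD-het cells at 8.86 CPM per kilobase, where it overlapped with Wdfy3 (9.05). In HD-homo cells Tollip was the fifth, at 12.7 CPM per kilobase, below Tax1bp1 (18.3), Nbr1 (14.6) and Bnip3l (13.3). There, 6 of the 9 neighbouring pairs overlapped, and Calcoco1 was the lowest at 5.83. With the longest annotated transcript as the length in place of all exons, Sqstm1 remained the highest in each line and Optn the lowest in control cells, but Tax1bp1 took the second place in control and HD-het cells, at 33.5 and 39.7 CPM per kilobase, and Bnip3 (8.7) and Wdfy3 (9.07) became the lowest in HD-het and HD-homo cells.

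**Figure D2:**
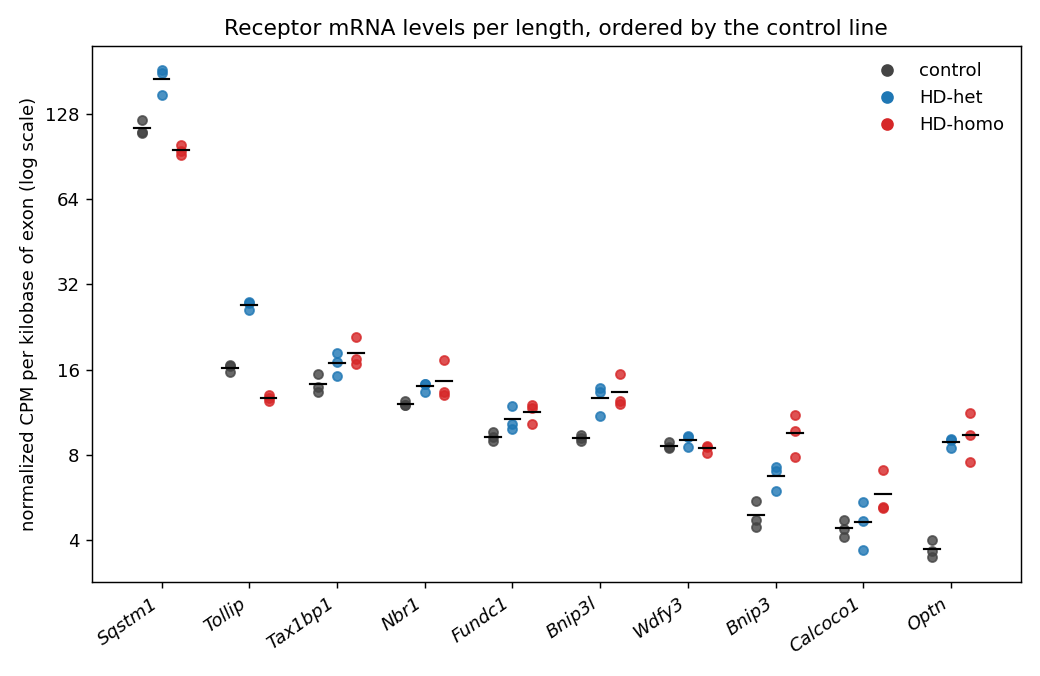
Normalized CPM per kilobase of exon (vertical axis, log scale) of each receptor mRNA, with 1 point per library, a bar at the mean of each line and the genes ordered by control cells. Sqstm1 stands above the other receptors in each line, and Optn is the lowest in control cells.

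Sqstm1 encodes p62, which gathers ubiquitinated proteins into condensates and is itself degraded by autophagy. On GRCm38 it is at chr11:50199366-50210827, minus strand. Its promoter sequence and that of Tollip, the other receptor whose mRNA moved in opposite directions in the HD lines, are shown for the stretch just before the RefSeq start of GRCm38.p6, and the GC box CCGCCC, or its complement GGGCGG, is in capitals. The Sqstm1 stretch is chr11:50210828-50210889, read on the minus strand, from 69 to 8 bases before the start, and the Tollip stretch is chr7:141902488-141902581, also on the minus strand, from 120 to 27 bases before the start.
Sqstm1: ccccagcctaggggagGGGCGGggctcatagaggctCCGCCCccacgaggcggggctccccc
Tollip: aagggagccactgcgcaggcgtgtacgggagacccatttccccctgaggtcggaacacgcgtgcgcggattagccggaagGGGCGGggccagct
Both stretches lie outside annotated exons, although the RefSeq starts of Sqstm1 and of Tollip lie inside the GENCODE spans of the genes. Another CCGCCC of Sqstm1, at position -72 from the start, is cut by the edge of the stretch shown. RefSeq promoters were matched for 8 of the 10 receptors. Within the 250 bases before the start on either strand, CCGCCC was found for Sqstm1, Optn, Calcoco1, Tollip and Bnip3, and in 32.7% of all 32851 RefSeq promoters. A match describes the letters and is not evidence that a factor binds there.

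Sqstm1 mRNA was 369.3, 370.6 and 408.1 normalized CPM in control replicates 1, 2 and 3, 612.3, 598.5 and 501.2 in HD-het replicates and 306.9, 316.3 and 333.8 in HD-homo replicates. The 3 lines did not overlap, with HD-het cells the highest and HD-homo cells the lowest. The mean was 382.7 ± 22.1 CPM in control, 570.7 ± 60.5 in HD-het and 319.0 ± 13.7 in HD-homo cells (SD, n = 3). Sqstm1 rose 1.49-fold in HD-het against control cells (log2 fold change 0.58, SE 0.08, edgeR adjusted p = 7.4e-05). In HD-homo cells it was 0.834 times the control level (log2 fold change -0.26, SE 0.0799, edgeR adjusted p = 0.0152), a difference that lost the threshold without control replicate 3 (-0.22, edgeR adjusted p = 0.0627) or without HD-homo replicate 1 (-0.24, edgeR adjusted p = 0.0522). Between the HD lines, Sqstm1 was lower in HD-homo cells by a log2 fold change of -0.84 (SE 0.0803, edgeR adjusted p = 2.8e-06). On the opposite strand Sqstm1 overlaps Mrnip, which had between 46 and 105 counts per library.

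Tollip encodes an adaptor that binds ubiquitin through a CUE domain and also acts in endosomal sorting and Toll-like receptor signalling. It lies on the minus strand of chr7:141874813-141918507. Its mRNA was 84, 83.6 and 79.5 CPM in control replicates, 138.9, 140.3 and 131.2 in HD-het replicates and 64.3, 62.8 and 65.9 in HD-homo replicates. As for Sqstm1, each line was apart from the others, and the replicates of a line were closer together. Tollip rose 1.66-fold in HD-het against control cells (log2 fold change 0.73, SE 0.0532, edgeR adjusted p = 5.7e-07) and was 0.781 times the control level in HD-homo cells (log2 fold change -0.36, SE 0.0535, edgeR adjusted p = 1.6e-04). The HD-homo level was 0.47 times that of HD-het cells (log2 fold change -1.09, SE 0.0536, edgeR adjusted p = 1.3e-08). The neural progenitor and the smooth muscle and pericyte sums, given above, were likewise highest in HD-het and lowest in HD-homo cells. Of the 4 progenitor markers tested, 3 rose and 1 fell in HD-het cells, and 1 rose and 3 fell in HD-homo cells. Of the 6 smooth muscle and pericyte markers tested, 6 rose in HD-het cells, but 2 rose and 2 fell in HD-homo cells. The part of these markers in the Sqstm1 and Tollip results was not tested.

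Optn encodes optineurin, a ubiquitin-binding receptor that the kinase TBK1 phosphorylates and that takes part in mitophagy and in the clearance of bacteria and aggregates. It lies on the minus strand of chr2:5020642-5064051. Control libraries held 15.1, 13.1 and 13.8 CPM of Optn mRNA, HD-het libraries 34.1, 33.8 and 31.8, and HD-homo libraries 28.4, 35.4 and 42.4. Every HD library was above every control library, and the HD-homo libraries spanned the HD-het ones. Optn rose 2.38-fold in HD-het cells (log2 fold change 1.25, SE 0.127, edgeR adjusted p = 7.0e-06) and 2.53-fold in HD-homo cells (log2 fold change 1.34, SE 0.127, edgeR adjusted p = 4.1e-06) against control cells. Between the HD lines its log2 fold change was 0.09, with a 95% interval from -0.18 to 0.36 (edgeR adjusted p = 0.515). Summed fibroblast markers were also lowest in control cells. Of the 5 tested, 3 rose and 2 fell in HD-het cells, and 4 rose and 0 fell in HD-homo cells. Their part in the Optn result was not tested.

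Nbr1 encodes a relative of p62 that binds ubiquitin and forms mixed assemblies with it. The gene is on the plus strand of chr11:101552149-101581951. Nbr1 mRNA was 85.1, 82.7 and 82.4 CPM in control replicates, 98, 97.7 and 92.2 in HD-het replicates and 89.5, 118.6 and 92.2 in HD-homo replicates. All HD libraries lay above the control libraries, and HD-homo replicate 2 was the highest of the 9. The log2 fold change of 0.20 in HD-het cells (95% interval 0.00 to 0.41) did not pass the threshold (edgeR adjusted p = 0.0773). In HD-homo cells Nbr1 rose, with a log2 fold change of 0.26 (SE 0.0934, edgeR adjusted p = 0.0306), which became 0.12 without HD-homo replicate 2 (edgeR adjusted p = 0.0813) and lost the threshold without any 1 of the control libraries, at edgeR adjusted p = 0.0616, 0.0795 and 0.0793. With only the 2 lines compared in the fit, the HD-homo difference of 0.26 did not pass (edgeR adjusted p = 0.053), whereas the HD-het difference of 0.20 did (edgeR adjusted p = 0.0045). The HD lines differed by 0.06 on the log2 scale (95% interval -0.14 to 0.27, edgeR adjusted p = 0.568).

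Tax1bp1 encodes a ubiquitin-binding receptor that works with NBR1 and p62 in the clearance of aggregates. It lies on the plus strand of chr6:52713729-52766780. Its mRNA was 138.9, 153.7 and 134.0 CPM in control replicates, 170.5, 183.7 and 151.8 in HD-het replicates and 173.5, 208.1 and 168.1 in HD-homo replicates. HD-het replicate 3 lay below control replicate 2, whereas the HD-homo libraries were all above the control ones. Tax1bp1 rose 1.29-fold in HD-homo cells (log2 fold change 0.37, SE 0.0952, edgeR adjusted p = 0.0065). The 1.19-fold difference in HD-het cells passed narrowly (log2 fold change 0.25, SE 0.0952, edgeR adjusted p = 0.0399) and was lost without control replicate 1 (edgeR adjusted p = 0.108), control replicate 3 (edgeR adjusted p = 0.133), HD-het replicate 1 (edgeR adjusted p = 0.0931) or HD-het replicate 2 (edgeR adjusted p = 0.151). With library totals as the only scaling it was 0.23 and also lost (edgeR adjusted p = 0.0647). Between the HD lines the log2 fold change was 0.12 (95% interval -0.09 to 0.33, edgeR adjusted p = 0.276).

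Calcoco1 encodes a receptor for the endoplasmic reticulum and the Golgi. It lies on the minus strand of chr15:102706777-102722178, and 1.43% of its 50-base words occur in transcripts of other genes. Calcoco1 mRNA was 27, 25.2 and 23.6 CPM in control replicates, 31.4, 26.8 and 21.2 in HD-het replicates and 29.8, 40.5 and 30 in HD-homo replicates. HD-het libraries lay on both sides of the control libraries, and each HD-homo library was above them. Calcoco1 rose 1.32-fold in HD-homo against control cells (log2 fold change 0.41, SE 0.149, edgeR adjusted p = 0.0357), which became 0.24 without HD-homo replicate 2 (edgeR adjusted p = 0.145) and lost the threshold without any 1 of the control libraries, at edgeR adjusted p = 0.0519, 0.0833 and 0.111. In HD-het cells its log2 fold change was 0.07 (95% interval -0.26 to 0.40, edgeR adjusted p = 0.702), and between the HD lines it was 0.34 (95% interval 0.01 to 0.66, edgeR adjusted p = 0.0605). The latter passed in 7 of 17 alternatives, with values from 0.17 without HD-homo replicate 2 to 0.48 without HD-het replicate 1 (edgeR adjusted p = 0.26 and 0.0186).

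Wdfy3 encodes ALFY, a large scaffold that joins p62-bound aggregates to the autophagy machinery. It lies on the minus strand of chr5:101832956-102069921. Its mRNA was 136.0, 130.7 and 129.7 CPM in control replicates, 143.4, 142.3 and 130.8 in HD-het replicates and 131.3, 124.9 and 132.3 in HD-homo replicates. The libraries of the 3 lines overlapped in each pair. The log2 fold change was 0.07 in HD-het cells (95% interval -0.05 to 0.19, edgeR adjusted p = 0.279) and -0.03 in HD-homo cells (95% interval -0.15 to 0.09, edgeR adjusted p = 0.67). Between the HD lines it was -0.10 (95% interval -0.22 to 0.02, edgeR adjusted p = 0.125).

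Bnip3 and Bnip3l encode related outer-membrane proteins that recruit LC3 to mitochondria, and both are known targets of hypoxia-inducible factors. Bnip3 lies on the minus strand of chr7:138890836-138909519. The letters CACGTG, the core of the E-box that the lysosomal regulators TFEB and TFE3 recognise, were found in the 250 bases before the start of Bnip3 alone among the 8 receptors with a promoter, and in 6.02% of all promoters. They also hold ACGTG, the core of the hypoxia response element, on both strands. The Bnip3 stretch from 200 to 21 bases before the RefSeq start (chr7:138909527-138909706 of GRCm38.p6, minus strand) is shown with CACGTG in capitals.
Bnip3: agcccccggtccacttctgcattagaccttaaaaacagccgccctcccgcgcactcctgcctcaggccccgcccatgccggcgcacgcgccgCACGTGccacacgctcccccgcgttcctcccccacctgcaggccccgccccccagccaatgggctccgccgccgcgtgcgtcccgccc
On either strand ACGTG was also found for Nbr1 and Tax1bp1, and in 16.6% of all promoters. The antioxidant response element, searched as TGACNNNGC, was found for Tax1bp1, and in 10.2% of all promoters. These are letters in a window and say nothing of binding in these cells.

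Bnip3 mRNA was 10.7, 10.1 and 12.5 CPM in control replicates, 15.9, 16.4 and 13.6 in HD-het replicates and 17.9, 25.2 and 22 in HD-homo replicates. The lines did not overlap and stood in the order control, HD-het, HD-homo. Bnip3 rose 1.38-fold in HD-het cells (log2 fold change 0.46, SE 0.135, edgeR adjusted p = 0.0104) and 1.96-fold in HD-homo cells (log2 fold change 0.97, SE 0.134, edgeR adjusted p = 8.3e-05). Between the HD lines it was 1.42-fold higher in HD-homo cells (log2 fold change 0.51, SE 0.13, edgeR adjusted p = 0.0044), the only receptor that was higher there. Of its 50-base words, 16.5% occur in transcripts of Gm16439, Gm6532 and Gm9419, so its counts are uncertain to the extent that reads were split among these copies. Summed striatal neuron markers stood in the same order of lines (91.7 to 102.6, 119.9 to 122.1 and 163.4 to 184.9 CPM), but nearly all of the sum was Foxp1. The other 5 tested markers of that list did not follow this order, and the median of the 6 was 0.10 in HD-het and -0.23 in HD-homo cells on the log2 scale. Their part in the Bnip3 result was not tested.

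Bnip3l lies on the minus strand of chr14:66985239-67008877. Its mRNA was 34.6, 35.5 and 36.2 CPM in control replicates, 51.2, 53.3 and 42.6 in HD-het replicates and 47.8, 59.5 and 46.7 in HD-homo replicates. Both HD lines lay above the control libraries and overlapped with each other. Bnip3l rose 1.38-fold in HD-het cells (log2 fold change 0.47, SE 0.105, edgeR adjusted p = 0.0023) and 1.45-fold in HD-homo cells (log2 fold change 0.54, SE 0.105, edgeR adjusted p = 0.0011). Between the HD lines the log2 fold change was 0.07 (95% interval -0.16 to 0.30, edgeR adjusted p = 0.572). The pseudogene Bnip3l-ps shares 20.8% of the 50-base words of Bnip3l and had 0 counts in every library.

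Fundc1 encodes an outer-membrane receptor that is regulated by phosphorylation during hypoxia. It lies on the minus strand of chrX:17556564-17572325. Control libraries held 22.6, 21.2 and 21.7 CPM of Fundc1 mRNA, HD-het libraries 23.2, 28 and 24.2, and HD-homo libraries 28.3, 27.5 and 24.2. The HD libraries were all above the control libraries, by a small margin for HD-het replicate 1. Fundc1 rose 1.22-fold in HD-homo cells (log2 fold change 0.29, SE 0.0882, edgeR adjusted p = 0.0157), which lost the threshold without control replicate 2 (edgeR adjusted p = 0.0583) or without HD-homo replicate 1 (edgeR adjusted p = 0.0548). Its log2 fold change of 0.20 in HD-het cells (95% interval 0.01 to 0.40) did not pass (edgeR adjusted p = 0.0648; 0.0475 with only the 2 lines compared), and between the HD lines it was 0.09 (95% interval -0.11 to 0.28, edgeR adjusted p = 0.396).

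**Figure D3:**
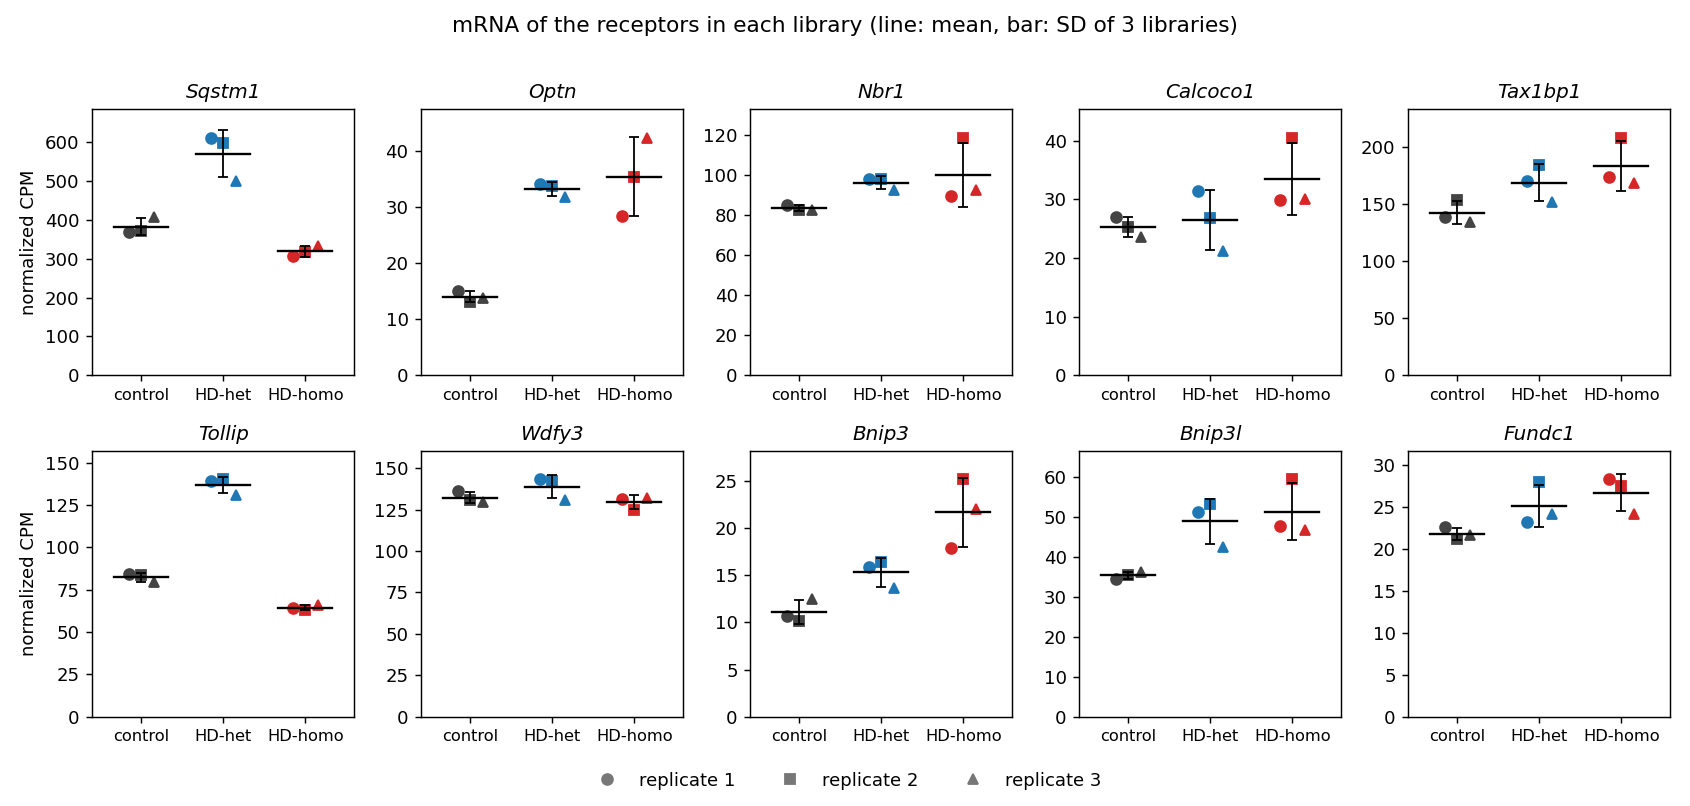
Normalized CPM of each receptor mRNA (vertical axis, from 0) in the 3 libraries of each line, with a line at the mean and bars of 1 SD. Sqstm1 and Tollip are highest in HD-het and lowest in HD-homo cells, Optn and Bnip3 are lowest in control cells, and the Wdfy3 libraries overlap.

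Among the 9 libraries, HD-homo replicate 2 was the highest for Nbr1, Calcoco1, Tax1bp1, Bnip3 and Bnip3l, which was not counted for all tested genes. It was the highest of the 3 HD-homo libraries for 5 of the 10 receptors (50%) and for 35.8% of all tested genes. Without it, Nbr1 and Calcoco1 lost their call in HD-homo against control cells, and Sqstm1, Optn, Tax1bp1, Tollip, Bnip3, Bnip3l and Fundc1 kept it.

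The LC3 and GABARAP proteins are the partners of these receptors on the autophagosome. In HD-het against control cells 4 of the 5 mRNAs of the family rose and 1 fell, where 33.8% and 31.4% of all tested genes did so. In HD-homo cells 4 rose and Map1lc3b did not pass, where 29.6% of all tested genes rose. Map1lc3a, which encodes LC3A, was 21.8 ± 1.78 CPM in control, 38.3 ± 1.47 in HD-het and 40.8 ± 0.282 in HD-homo cells (SD, n = 3), with log2 fold changes of 0.82 and 0.91 against control cells (edgeR adjusted p = 2.2e-06 and 8.5e-07). Map1lc3b was higher in HD-het cells (log2 fold change 0.48, edgeR adjusted p = 4.0e-04) but not past the threshold in HD-homo cells, with 65.6 ± 3.39 CPM in control and 65.5 ± 8.37 in HD-homo cells (edgeR adjusted p = 0.994). Gabarap rose by 0.67 in HD-het and 0.40 in HD-homo cells on the log2 scale, and Gabarapl1 by 0.32 and 0.69. Gabarapl2 fell in HD-het cells (log2 fold change -0.18, edgeR adjusted p = 0.0466), a call that was lost without control replicate 1 or 3 or any one HD-het library, and rose in HD-homo cells (0.34, edgeR adjusted p = 0.0016). Between the HD lines the family was split. In HD-homo against HD-het cells 2 of the 5 were lower, Map1lc3b (log2 fold change -0.48) and Gabarap (-0.27), and 2 were higher. Of all tested genes, 35.6% were lower and 36% higher there.

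Of 20 other receptors of selective autophagy, 9 rose and 4 fell in HD-het cells, and 6 rose and 4 fell in HD-homo cells, with median log2 fold changes of 0.15 and 0.09. For this list and those below, the shares of all tested genes were 33.8% higher and 31.4% lower in HD-het cells. In HD-homo cells these shares were 29.6% and 28.9%. Stbd1, a receptor for glycogen, was 14.1 ± 0.14 CPM in control, 26.8 ± 1.39 in HD-het and 23.9 ± 3.14 in HD-homo cells, and rose in both HD lines (log2 fold change 0.93 and 0.76, edgeR adjusted p = 7.9e-06 and 4.4e-05). Nlrx1, a mitochondrial protein of the NLR family, moved in opposite directions, from 1.31 ± 0.237 CPM in control to 3.2 ± 0.683 in HD-het and 0.593 ± 0.142 in HD-homo cells (log2 fold change 1.29 and -1.12, edgeR adjusted p = 3.3e-04 and 0.0036).

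Of 11 kinases, phosphatases and partners that act on the receptors, 3 rose and 4 fell in HD-het cells, and 4 rose and 4 fell in HD-homo cells. Dapk1, a death-associated kinase, had 0, 1 and 4 counts in control replicates, 1, 5 and 3 in HD-het replicates and 32, 63 and 71 in HD-homo replicates. Bcl2l1, which encodes Bcl-xL, was 97.8 ± 6.46 CPM in control and 69.6 ± 11.7 in HD-homo cells, and fell by 0.49 on the log2 scale (edgeR adjusted p = 0.0019). The PINK1 pathway marks damaged mitochondria with ubiquitin for receptors such as optineurin. Of its 20 tested genes, 3 rose and 9 fell in HD-het cells, and 6 rose and 4 fell in HD-homo cells. Pink1 was 11.5 ± 0.409 CPM in control, 20.4 ± 3.82 in HD-het and 17.9 ± 2.42 in HD-homo cells and rose in both (log2 fold change 0.83 and 0.64, edgeR adjusted p = 3.3e-04 and 0.0025). Oma1, a protease of the inner mitochondrial membrane, fell in HD-homo cells (log2 fold change -0.53, edgeR adjusted p = 0.0011).

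Of 24 genes of autophagosome formation, 10 rose and 6 fell in HD-het cells, and 6 rose and 8 fell in HD-homo cells. In these comparisons 65.1% and 58.6% of all tested genes passed. Atg10, an enzyme of ATG12 conjugation, was 1.18 ± 0.227 CPM in control, 3.67 ± 0.306 in HD-het and 2.42 ± 0.245 in HD-homo cells (log2 fold change 1.63 and 1.04, edgeR adjusted p = 9.4e-06 and 4.2e-04). Rb1cc1, which encodes the scaffold FIP200, was 134.7 ± 18.7 CPM in control, 221.1 ± 17.2 in HD-het and 94.4 ± 20.4 in HD-homo cells. It rose in HD-het and fell in HD-homo cells (log2 fold change 0.71 and -0.51, edgeR adjusted p = 0.0011 and 0.0101), as Sqstm1 and Tollip did.

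TFEB and TFE3 are transcription factors that drive lysosomal genes, and Sqstm1 is a known target. Of 21 of their lysosomal targets, 16 rose and 1 fell in HD-het against control cells, with a median of 0.78 on the log2 scale. In HD-homo cells 6 rose and 7 fell, with a median of 0.01 (from -0.10 to 0.05 under the alternatives), and against HD-het cells 2 were higher and 17 were lower, with a median of -0.63. Between the HD lines, 36% of all tested genes were higher and 35.6% lower. Rragd, a GTPase that links amino acids to mTORC1, was 8 ± 0.23 CPM in control, 31.5 ± 5.66 in HD-het and 2.52 ± 0.225 in HD-homo cells (log2 fold change 1.98 and -1.66, edgeR adjusted p = 2.5e-07 and 2.6e-06). Gpnmb, a lysosomal membrane glycoprotein, had 3, 1 and 3 counts in control replicates and 29, 53 and 50 in HD-homo replicates, which is at least 12.8-fold higher against the mean floor of 3 counts per library. The median log2 fold changes of the list were the same to 2 decimals with Gpnmb at this bound.

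Hypoxia-inducible factors raise Bnip3 and Bnip3l in many cells. Of 19 of their other targets tested, 7 rose and 5 fell in HD-het cells, and 6 rose and 6 fell in HD-homo cells, with medians of -0.06 and 0.03 on the log2 scale. Both medians changed sign under alternatives. They ran from -0.08 to 0.13 in HD-het and from -0.01 to 0.14 in HD-homo cells, so neither median has a direction. The part of these factors in the Bnip3 and Bnip3l results was not tested. Adm, which encodes adrenomedullin, was 0.85 ± 0.13 CPM in control and 15.3 ± 3.37 in HD-homo cells (log2 fold change 4.16, edgeR adjusted p = 2.4e-08), and it had 0, 1 and 0 counts in the HD-het libraries, at least 9.59-fold lower than control cells against the same floor. Ankrd37 was 2.1 ± 0.472 CPM in control and 1.02 ± 0.165 in HD-homo cells (log2 fold change -1.04, edgeR adjusted p = 0.0031). NRF2 is the oxidative-stress factor that p62 activates by binding its inhibitor KEAP1. Of 14 NRF2 targets, 5 rose and 7 fell in HD-het cells, and 8 rose and 5 fell in HD-homo cells. Hmox1, which encodes haem oxygenase, was 65.8 ± 5.93 CPM in control, 210.4 ± 55.9 in HD-het and 205.7 ± 69.9 in HD-homo cells (log2 fold change 1.68 and 1.64, edgeR adjusted p = 8.1e-05 and 1.1e-04). Osgin1, a growth inhibitor induced by oxidative stress, was 24.2 ± 0.299 CPM in control, 31 ± 5.76 in HD-het and 5.35 ± 0.283 in HD-homo cells, and fell in HD-homo cells (log2 fold change -2.17, edgeR adjusted p = 7.3e-08). Of 14 transcription factors and regulators known to act on the receptors, 6 rose and 3 fell in HD-het cells, and 7 rose and 1 fell in HD-homo cells. Mitf, a relative of TFEB, was 1.69 ± 0.0924 CPM in control and 4.39 ± 0.545 in HD-homo cells (log2 fold change 1.38, edgeR adjusted p = 4.4e-05). Trp53, which encodes p53, was 207.7 ± 11 CPM in control, 130.7 ± 8.67 in HD-het and 184.2 ± 4.95 in HD-homo cells, and fell in both (log2 fold change -0.67 and -0.17, edgeR adjusted p = 4.1e-06 and 0.0342), the latter lost without control replicate 1 or 3 or HD-homo replicate 1 or 2.

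**Figure D4:**
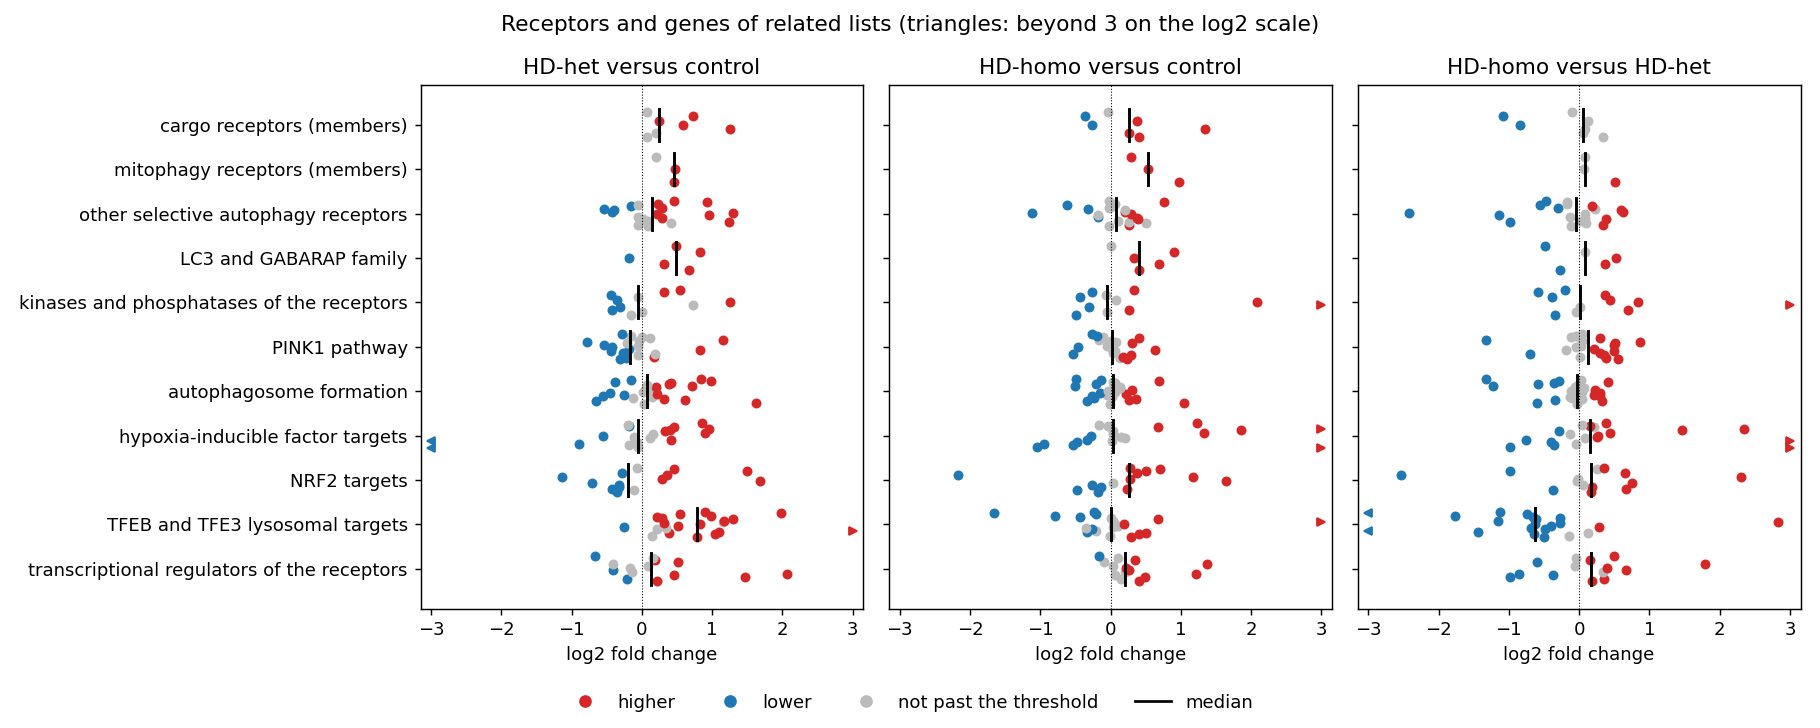
Log2 fold change (horizontal axis, drawn to 3 with triangles for values beyond it) of the receptors and of each related list in the 3 comparisons, with 1 point per gene, colour for its call and a bar at the median. The TFEB and TFE3 targets lie mostly above 0 in HD-het cells and mostly below 0 in HD-homo against HD-het cells.

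The receptors with the widest range of line means on the log2 scale were Optn (1.29), Tollip (1.08) and Bnip3 (0.93). For each, the genes with the most similar pattern were found by Pearson's r of log2 normalized CPM over the 9 libraries, which share their lines and are not independent conditions. Ldhb (r = 0.992), Ifi27 (0.987) and Fam102a (0.987) were the most like Optn. For Tollip they were Kif21b, Msx2 and Rerg, each with r = 0.998. That these were also highest in HD-het and lowest in HD-homo cells follows from how they were picked. Some levels were low, at 0.861 CPM for Msx2 and 0.243 for Rerg in HD-homo cells and 0.516 for Ifi27 in control cells. Eif2ak3 (0.992), Sulf2 (0.984) and Pde5a (0.979) were the most like Bnip3.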

How the data were processed

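Poly(A) RNA of 3 striatal lines, 3 libraries each, was made into directional libraries. The authors deposited whole-number counts of reads per gene, by symbol and without normalization. The submitters' processing notes list cutadapt, Bowtie 1.1.2, RSEM 1.3.0 and DESeq2, with GRCm38.p5 and mm10, without role or order. Whether RSEM estimates were rounded, and whether counting used strand, is not given in the sources used here, so reads of a gene and its antisense partner cannot be told apart. The table has 26 rows with a date in place of a symbol, which were kept.

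The receptors and the gene lists were chosen with earlier results of these data known. For the tests, edgeR 4.0.16 in R 4.3.3 was used, with filterByExpr (minimum count 10) as the filter. Libraries were normalized by TMM (factors 0.984 to 1.03), and 1 mean per line was fitted by the quasi-likelihood method. Normalized CPM used the TMM-scaled totals over the tested genes. An adjusted p under 0.05 was the threshold. The fits were tested on simulated counts of 12492 genes, where 183 of 200 changed genes were called and 2.14% of the calls were false. The simulation gave every gene the same spread and changed few genes, unlike these data, so it does not measure the error here. Floors of 3 counts cover counting error only.

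All receptors are named. From each other list the highest and the lowest gene in HD-homo against control cells among those past the threshold are named, and lists of 5 or fewer genes in full. Some listed genes are not reported here. For the 3 receptors with the widest range, the 3 most similar genes are named (log2 of CPM plus 0.5). Positions come from GENCODE release M21 on GRCm38, and promoters from RefSeq on GRCm38.p6. The share of 50-base words in common with other transcripts measured reads that could be counted on another gene.

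Alternatives were DESeq2's size factors within edgeR, library totals only, DESeq2 1.42.0's Wald test, no filter, at least 10 counts in every library, only the 2 lines compared, the replicate number as a block, each library left out in turn, control and HD-het cells without replicate 3, an adjusted p under 0.01 and the longest transcript as the length. The counts of the gene lists were recomputed under these after seeing the data.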

Additional observations from a re-analysis of the deposited data

Results flagged for a closer look

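For 3 receptors the difference from control cells was not the same in the HD lines, by the test of the difference itself, which is edgeR's comparison of HD-homo with HD-het cells in the fit to all 9 libraries. Sqstm1 differed by a log2 fold change of -0.84 (edgeR adjusted p = 2.8e-06) and Tollip by -1.09 (edgeR adjusted p = 1.3e-08), and both were lower in 3 of 3 HD-homo libraries than in each HD-het library. Bnip3 differed by 0.51 (edgeR adjusted p = 0.0044) and was higher in 3 of 3 HD-homo libraries. These comparisons were past the threshold in each alternative that gave a value. Such differences were common, since 71.6% of all tested genes passed between the HD lines and 72.8% did not overlap. With 3 libraries per line, single libraries were not tested for standing apart.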

How the results depend on the processing

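Of 510 log2 fold changes of receptors under the alternatives, 468 kept their direction and their side of the threshold, 22 lost the threshold, 14 gained it and 6 reversed. The reversals were small, and none was of a value past the threshold. Without HD-het replicate 1, Calcoco1 was -0.07 in HD-het against control cells, within a range up to 0.21 over the libraries left out. In HD-homo against HD-het cells, Optn was -0.06 without HD-homo replicate 3 (up to 0.23 over the libraries left out), Nbr1 was -0.08 without HD-homo replicate 2 (up to 0.14), and Bnip3l (up to 0.13) was -0.02 without HD-het replicate 3, -0.05 without HD-homo replicate 2 and -0.02 with replicates 1 and 2 only of control and HD-het cells. The cause was not tested. With library totals only, 5 receptors in place of 6 passed in HD-het against control cells (Tax1bp1 was lost), and with only the 2 lines compared 8 did (Nbr1 and Fundc1 were gained). At an adjusted p under 0.01, 5 receptors in place of 9 passed in HD-homo against control cells, without a share of all tested genes to set beside it. Leaving out 1 library gave 5 to 7 receptors and 7865 to 9216 of all genes past the threshold in HD-het against control cells, 6 to 9 and 6842 to 8068 in HD-homo against control cells, and 3 to 4 and 8977 to 9675 between the HD lines. The receptors fell to 6 in HD-homo cells without control replicate 2 or control replicate 3. With the replicate number as a block, the same 6 and 9 receptors were counted against control cells, 4 between the HD lines (Calcoco1 was gained at 0.34, edgeR adjusted p = 0.0313), and 9160, 8372 and 9938 of all genes. Whether the numbers pair the libraries was not settled. The deviations of same-numbered libraries correlated across genes with r from 0.0682 to 0.245 (HD-het and control), 0.0226 to 0.0398 (HD-homo and control) and 0.0322 to 0.202 (both HD lines). Differently numbered libraries had r from -0.251 to 0.0842, -0.0261 to -0.00935 and -0.191 to 0.0607 in the same order. In these pairs of lines, 5 of 6, 6 of 6 and 4 of 6 libraries correlated best with their own number. Scaling by other methods moved the median of all genes by at most 0.03. Among the lists, the 8 autophagosome genes that fell in HD-homo cells became 4 or 5 without any one control library, without HD-het replicate 1 or without HD-homo replicate 1 or 2, and 5 with no filter or with only the 2 lines compared. The 4 other receptors that fell there became 2 without any one control library or HD-homo replicate 1 or with library totals only. The 6 PINK1 pathway genes that rose became 3 without control replicate 2, the 7 regulators that rose became 4 without control replicate 1, and the 5 NRF2 targets that fell became 3 without control replicate 1 or HD-homo replicate 2. The 5 hypoxia-inducible factor targets that fell in HD-het cells became 3 with at least 10 counts in every library, where fewer genes were tested. The TFEB and TFE3 targets that were higher in HD-het cells numbered 14 to 18, and those lower in HD-homo than HD-het cells 16 to 17. The 1 that fell in HD-het cells, Fnip2, lost its call without any one control library or HD-het replicate 1 or 3, and of the 2 that were higher between the HD lines, 1 was left without HD-het replicate 1 or HD-homo replicate 3.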
